A study of Homo sapiens with 5 samples.

Results

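The data described here are the DNA methylation levels of human induced pluripotent stem cells (iPSCs) that received the vehicle alone, which is 1 of the 5 samples of the series. The cells were the line HPS0063 (201B7, from the Riken BRC), labelled as pluripotent stem cells of WT genotype and kept without feeder cells in mTeSR1 medium on Laminin511-E8. The treatment label gives 0.1% DMSO, and the exposure lasted 48 h. The other 4 samples received a chemical and are not compared here. The line is a single established clone and the condition holds a single library, so no value below has a replicate and no test was made. Intervals are 95% Wilson binomial intervals or, for a mean over windows, the same level from the counting standard error. Where no call was methylated, the limit given is 3 calls of the total, which is another bound than the Wilson interval. Intervals and limits cover counting error only, because several cytosine calls can come from the same read or from PCR copies of it. They also take the deposited counts as observed calls, although the authors scaled the coverage between libraries.

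Methylation was measured by reduced representation bisulfite sequencing (RRBS), in which a restriction enzyme enriches fragments rich in CpG. Bisulfite changes unmodified cytosines, and the unchanged cytosines are counted as methylated. The deposited table gives 288391 windows of 1000 bases on hg38, each with methylated and unmethylated CpG calls, and the β-value is the methylated share of the calls. Of the 287818 windows on the 22 autosomes and X, 282732 had at least 30 calls and were described, while 5086 had fewer. These windows held 228556831 calls, with a median of 511 per window, and 90% of them had between 68 and 2652.

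In mammalian cells most CpG sites are methylated by DNMT1, DNMT3A and DNMT3B, and the TET enzymes start the removal of the mark. CpG islands, the CpG-dense stretches at many promoters, are the usual exception and stay free of it. Pluripotent cells in culture express DNMT3B strongly, keep the islands of developmental regulators unmethylated and hold many germline promoters methylated. Imprinted genes carry the mark at their control regions on the maternal or the paternal copy alone.

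The 250 bases before the transcription start of 6 genes are printed first, because they show that promoters of similar CpG content lay at opposite ends of the scale. They come from RefSeq on GRCh38.p14, are written 5′ to 3′ on the strand of the gene, and have each CG in capitals. POU5F1 was to be shown as well and has no entry in the sequence table used, and ALB, the serum albumin gene, had no window with calls. SOX2, DPPA5 and JAG1 were added after their values had been seen. Of the listed starts of DAZL and SNRPN, the one farthest upstream and the one with the most calls are given.
SOX2 (chr3:181711675-181711924, + strand, 20 CG): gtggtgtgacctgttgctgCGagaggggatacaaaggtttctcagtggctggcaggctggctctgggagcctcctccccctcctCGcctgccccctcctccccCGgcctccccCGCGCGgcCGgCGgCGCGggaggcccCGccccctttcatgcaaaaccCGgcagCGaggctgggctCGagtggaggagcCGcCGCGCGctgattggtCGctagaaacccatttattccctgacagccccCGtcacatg
JAG1 (chr20:10674000-10674249, − strand, 17 CG): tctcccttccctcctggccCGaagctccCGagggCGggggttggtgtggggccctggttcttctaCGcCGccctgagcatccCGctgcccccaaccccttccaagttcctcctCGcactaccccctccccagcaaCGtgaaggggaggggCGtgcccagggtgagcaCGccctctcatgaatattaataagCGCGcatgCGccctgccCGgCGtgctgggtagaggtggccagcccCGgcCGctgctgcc
DPPA5 (chr6:73354277-73354526, − strand, 19 CG): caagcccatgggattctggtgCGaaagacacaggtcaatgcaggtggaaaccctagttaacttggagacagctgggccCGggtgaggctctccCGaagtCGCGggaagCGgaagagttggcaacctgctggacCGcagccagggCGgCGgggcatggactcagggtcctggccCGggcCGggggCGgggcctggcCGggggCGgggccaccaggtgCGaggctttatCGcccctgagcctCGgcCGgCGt
DAZL (chr3:16605424-16605673, − strand, 28 CG): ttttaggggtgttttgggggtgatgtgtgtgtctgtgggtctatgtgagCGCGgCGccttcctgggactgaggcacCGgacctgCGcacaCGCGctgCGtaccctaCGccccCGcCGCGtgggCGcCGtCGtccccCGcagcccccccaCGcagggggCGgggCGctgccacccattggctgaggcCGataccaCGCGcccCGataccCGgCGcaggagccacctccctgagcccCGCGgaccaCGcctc
SNRPN (chr15:24954737-24954986, + strand, 12 CG): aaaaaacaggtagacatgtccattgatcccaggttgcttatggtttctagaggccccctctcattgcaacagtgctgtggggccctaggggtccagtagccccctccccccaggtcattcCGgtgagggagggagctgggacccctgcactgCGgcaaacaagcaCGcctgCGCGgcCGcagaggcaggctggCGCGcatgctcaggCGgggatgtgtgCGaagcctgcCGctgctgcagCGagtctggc
DNMT3B, internal start (chr20:32779602-32779851, + strand, 3 CG): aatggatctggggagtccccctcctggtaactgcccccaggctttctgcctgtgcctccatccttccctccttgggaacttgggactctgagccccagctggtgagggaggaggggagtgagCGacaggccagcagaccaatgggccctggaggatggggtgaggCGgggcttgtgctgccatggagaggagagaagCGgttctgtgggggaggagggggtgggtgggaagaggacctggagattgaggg
Calls were pooled over the windows that overlap the stretch from 1000 bases upstream to 500 bases downstream of each start. SOX2, a core pluripotency factor, had 16 methylated calls of 3743 and a β-value of 0.427% (95% interval 0.263 to 0.693). JAG1, a Notch ligand and 1 of the genes the study followed, had 0.554% of 5416 calls. DPPA5, a gene of early embryonic and germ cells, had 93.7% of 9034 calls (93.2 to 94.2) with nearly as many CG as SOX2. DAZL, an RNA-binding protein of germ cells, had 94.7% of 835 calls (93 to 96.1) with more CG than either. SNRPN, an imprinted gene, lay between them with 30.3% of 2680 calls (28.6 to 32.1). The CpG-poor internal start of DNMT3B had 92.3% of 1560 calls, whereas the start of the whole DNMT3B gene had 0.852% of 3286.

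Most of the measured genome was strongly methylated, and a small, sharply separate share was nearly free of methylation. The mean β-value over windows was 79.2%, with a counting standard error of 0.0035 percentage points, and the median 90.9%, with quartiles of 84.1% and 94.1%. Windows at or above 90% made up 55.9% of all windows (55.7 to 56.1), and windows from 70% to 90% a further 28.1%. Windows below 10% made up 9.69% (9.58 to 9.80). Only 4.28% (4.21 to 4.36) lay from 30% to 70%, and 2.05% from 10% to 30%. When all calls were pooled the level was 63.2%, and islands held 39.9% of the calls but 17.5% of the windows. No methylated call was seen in 947 windows, with a median of 168 calls, which allows a β-value of up to 1.79% in such a window. A further 3266 windows were methylated in every call, with a median of 56 calls.

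CpG islands accounted for most of the unmethylated windows. The 49375 island windows had a mean of 41.3%, with 47.8% of them (47.4 to 48.3) below 10% and 27.6% at or above 90%. Islands held 86.2% of the windows below 10%. The mean was 82.1% in the 29520 shore windows that flank islands, 86.9% in the 19494 shelf windows beyond the shores, and 88.1% in the 184343 windows elsewhere. Below 10% lay 4.57% of shore windows, 1.37% of shelf windows and 1.18% of the windows elsewhere. The counting standard error of these means was at most 0.014 percentage points, far below the differences between them. The intervals of the shares below 10% overlapped between shelves (1.22 to 1.54) and the windows elsewhere (1.13 to 1.23).

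**Figure D1:**
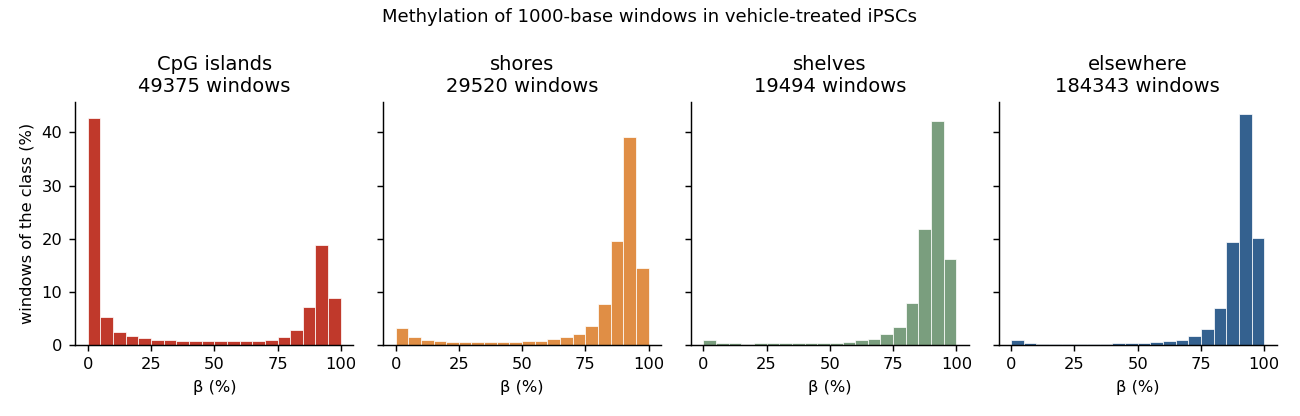
Share of windows (y axis, % of the class) by β-value (x axis, in bins of 5 percentage points) in CpG islands, shores, shelves and elsewhere. Island windows form a peak below 5% (42.6% of them) and a lower one above 90%, while the other classes have their main peak above 85%. Shores show a second, small peak below 5% (3.16% of them).

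Intermediate methylation was spread over the genome in another way than low methylation. Of the 12113 windows from 30% to 70%, 24.2% were in islands and 53.9% outside islands, shores and shelves. Of the 158121 windows at or above 90%, 74.2% were outside them and 8.62% in islands. Among all windows these shares were 65.2% and 17.5%. From 30% to 70% lay 3.54% of the windows outside islands, shores and shelves and 5.94% of island windows.

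Levels depended on the part of the gene, and most of that dependence was seen in islands. Promoter windows had a mean of 44.5% and windows of the 5′ UTR 43.2%, followed by intron-exon boundaries with 69.0%, exons with 74.5%, 3′ UTRs with 78.9%, the stretch 1 to 5 kb upstream of genes with 83.3%, introns with 85.4% and intergenic windows with 86.4%. Within islands alone the order was similar and the range wider, from 19.05% in the 16140 promoter windows over 24.9% in the 5′ UTR, 33.4% at intron-exon boundaries, 49.1% in exons and 53.9% in 3′ UTRs to 66.0% in the 12121 intergenic windows. Outside islands, shores and shelves the same sections ranged from 78.9% in promoters to 89.0% in introns. Islands made up 56.3% of promoter windows and 8.77% of intergenic windows.

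**Figure D2:**
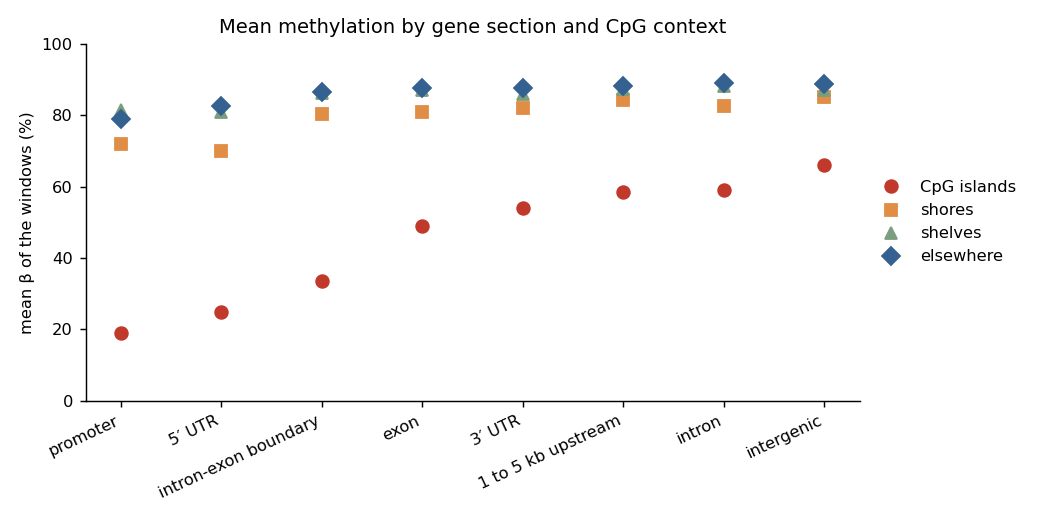
Mean β-value of the windows (y axis, %) by gene section (x axis) for islands, shores, shelves and elsewhere. Island means climb from 19.05% in promoters to 66.0% in intergenic windows, whereas windows outside islands, shores and shelves stay between 78.9% and 89.0%.

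Counted as single units, the 29012 islands fell into an unmethylated and a methylated group. The calls of an island's windows were pooled, and 11945 islands (41.2%) were below 10%, 1983 (6.84%) from 30% to 70% and 8925 (30.8%) at or above 90%. Long islands were less often methylated. Of the 3330 islands of up to 500 bases, 20.6% were below 10% and 68.9% at or above 70%, whereas of the 210 islands over 4000 bases 66.2% were below 10% and 14.8% at or above 70%. Islands with a promoter window were below 10% in 66.9% of 12373 cases, and those without one in 22.1% of 16639. The table gives island borders in steps of 100 bases, so a window at a border can hold flanking sequence. In 15891 islands with 2 or more windows the median range between windows was 4.04 percentage points, and 2344 of them (14.8%) had a range over 50 points.

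Methylation climbed within a short distance of the island border. Windows outside islands whose centre lay up to 1000 bases from an island had a mean of 74.1%, with 9.62% of them below 10%. The mean was 84.7% from 1000 to 2000 bases, 86.5% from 2000 to 3000 bases, 87.4% from 6000 to 10000 bases and 88.4% beyond 20000 bases.

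Windows next to each other were alike, and the likeness was short-ranged. Over 99811 pairs of adjoining windows Pearson's r of the β-values was 0.731, and over 69334 pairs at a distance of 2000 bases it was 0.371. At 10000 bases r was 0.105, and at 50000 bases 0.027. Between island windows r was 0.737 in adjoining windows and still 0.309 at 10000 bases, against 0.503 and 0.035 between windows outside islands, shores and shelves. These are descriptions across windows of the same library, and adjoining windows can share an island.

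The chromosomes had similar means and differed in their islands. The mean β-value ranged from 76.8% on chromosome 19 to 82.5% on chromosome 21 among the autosomes, with 80.03% on X. The share of island windows below 10% was lowest on chromosome 19 with 33.0% and highest on chromosome 6 with 58.5% (median 50.2%), and it was low as well on chromosomes 21, 22 and 16, with 33.4%, 34.6% and 36.7%. These 4 chromosomes were also the lowest in promoter-labelled island windows, with 58.5% below 10% on chromosome 21, 59.0% on chromosome 16, 59.7% on chromosome 19 and 60.6% on chromosome 22, against 81.3% on chromosome 4. Outside islands, shores and shelves the range was narrow, from 86.2% on chromosome 19 to 89.5% on chromosome 13.

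**Figure D3:**
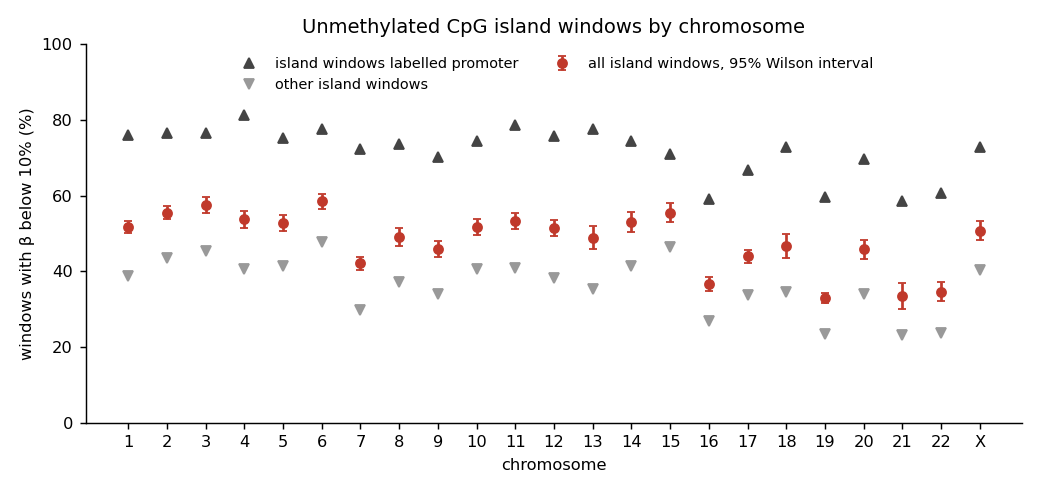
Share of CpG island windows with a β-value below 10% (y axis, %) on each autosome and X (x axis), with circles and 95% Wilson intervals for all island windows and triangles for promoter-labelled (dark) and other (grey) island windows. Chromosomes 16, 19, 21 and 22 are lowest, at 33.0% to 36.7%, and promoter-labelled windows are above the others on every chromosome.

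Around gene starts, the calls of the windows that overlap 1000 bases upstream to 500 bases downstream were pooled, and genes with at least 30 calls there were kept. Of the 50599 genes that the table names, 29262 were measured at the start given by the table. Of these, 43.7% were below 10% and 38.3% at or above 70%. Among 14186 protein-coding genes, 62.0% were below 10% and 15.2% at or above 70%, with a median of 3.43%. Among 2582 long non-coding RNA genes, 50.9% were below 10% and 31.2% at or above 70%.

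The position taken as the start matters for single genes. The table takes the outermost start of a gene, and the start of the RefSeq record was used beside it, a choice made after the data had been seen. It lay within 1000 bases of the table's start in 88.8% of 32754 matched genes. At the RefSeq start 51.3% of 21067 genes were below 10% and 29.3% at or above 70%, and of 14359 protein-coding genes 63.1% and 14.4%. Of 1427 measured genes whose starts lay further apart, 455 differed by more than 50 percentage points between them, 261 with the lower level at the RefSeq start and 194 with the higher one.

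A protein-coding gene that starts inside an island was mostly unmethylated there. Of 10659 such genes measured at the RefSeq start, 73.7% were below 10% and 3.10% at or above 70%, with a median of 1.91%. Of 3700 genes that start outside the islands listed in the deposited table, 32.5% were below 10% and 46.9% at or above 70%, with a median of 59.0%. An island without an island window in that table is not listed, so some of these starts may lie in islands. Around starts in islands the median window was at 0.974% at the start, 1.53% at 500 bases upstream, 23.8% at 1000 bases upstream and 90.9% at 2500 bases upstream. Downstream it was 2.70% at 1000 bases, 41.2% at 1500 bases and 89.7% at 2500 bases, so the trough reached further into the gene than before it.

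**Figure D4:**
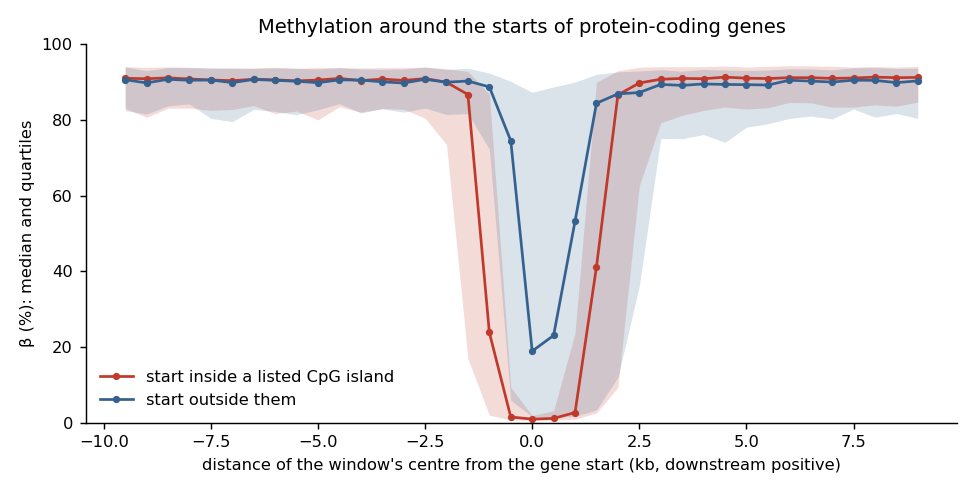
Median β-value of the windows (lines, y axis in %) and their quartiles (bands) by the distance of the window's centre from the RefSeq start of protein-coding genes (x axis, kb, downstream positive). The median at starts inside an island listed in the deposited table (red) is 0.974%. At starts outside the listed islands (blue) it is 18.9% with quartiles of 1.61% and 87.2%.

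The CpG content of the promoter went along with its level. Over the 34961 RefSeq promoter sequences of 300 bases on the autosomes and X, 96.1% hold the letters CG and 63.2% hold CCGG, the site of MspI, the enzyme that RRBS commonly uses. Both motifs read the same on either strand, and each CCGG contains a CG. Promoters without CCGG were measured in 28.6% of 12866 cases and those with 4 or more in 97.4% of 8308, so promoters rich in this site are over-represented among the measured ones. With 0 to 4 CG, 13.6% of 2025 measured promoters were below 10% and 75.8% at or above 70%. With 10 to 19 CG the shares were 54.9% and 23.9% of 4468, and with 30 or more 77.1% and 2.31% of 7660. Of the 13824 measured promoters with 20 or more CG, 519 (3.75%) were at or above 70%, DAZL among them.

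Genes of the pluripotency network were mostly unmethylated at their starts, with some exceptions. Of the 25 genes listed, 21 were measured at the table's start, and NANOG, TDGF1, GDF3 and NODAL were not. Below 10% were 13 of the 21 (61.9%) and at or above 70% were 4 (19.05%), with a median of 1.76%. These shares are close to those of protein-coding genes, 62.0% and 15.2%. After SOX2 the lowest were DPPA4 with 0.525%, SALL4, a zinc finger factor, with 0.536%, TRIM71, a regulator of RNA stability, with 0.601%, PRDM14, a repressor of germ layer genes, with 0.676%, and MYCN, a proto-oncogene, with 0.793%. FOXD3 had 0.959%, LIN28A, which blocks the processing of the let-7 microRNA, 1.54%, KLF4, a reprogramming factor, 1.76%, UTF1 3.08% and L1TD1 9.12%.

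Some genes of this list carried partial or high methylation. FGF4, a growth factor, had 13.9% of 15926 calls (13.4 to 14.5), ZFP42, the zinc finger gene also called REX1, 24.2% of 2552, and TERT, the catalytic part of telomerase, 35.1% of 10690 (34.2 to 36.0). The NODAL antagonists LEFTY1 and LEFTY2 had 64.3% and 84.3%, and DPPA2, the partner of DPPA4, had 77.8% of 2850 calls (76.2 to 79.3). POU5F1, the gene of OCT4, had 91.1% of 6533 calls at the table's start and 0.943% of 1061 calls at the RefSeq start 10049 bases downstream. LIN28B had 90.7% at the table's start and 0.793% and 0.641% at the 2 RefSeq promoters measured. DPPA4, in turn, had 86.7% of 330 calls at a RefSeq start 2090 bases upstream. NODAL, a ligand that keeps human cells pluripotent, had 2.60% of 5568 calls at its measured RefSeq promoter.

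Few genes of the naive state, an earlier stage of pluripotency than that of usual human iPSC cultures, were measured. Of 10 genes, 6 had enough calls, and 3 of them were at or above 70% (50%, interval 18.8 to 81.2), against 15.2% of protein-coding genes and 38.3% of all genes. This interval overlaps that of the pluripotency list (7.67 to 40.0). DPPA5 had 93.7%, DPPA3 88.9%, SUSD2 72.0% of only 93 calls (62.2 to 80.1), DNMT3L, a cofactor of the DNA methyltransferases, 69.8%, NLRP7 41.4% and TFCP2L1, a transcription factor, 1.60%. At the RefSeq start 5 of 7 measured genes were at or above 70% (71.4%, interval 35.9 to 91.8), against 14.4% of protein-coding genes. There DNMT3L had 87.5% of 321 calls. KLF17 had no calls at the table's start and 89.7% of 203 calls at a RefSeq start 74894 bases upstream. KLF5 and ESRRB had no calls at either start. At RefSeq promoters further into the gene they had 0.672% and 1.37%.

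The label of the cells was checked against lists of marker genes, of which methylation gives only a partial view. Genes typical of fibroblasts, the cells from which iPSC lines are commonly made, were measured in 11 of 18 cases, and 9 (81.8%, interval 52.3 to 94.9) were below 10%, against 62.0% of protein-coding genes. FBN1, the gene of fibrillin, had 0.855%, TWIST1 0.923% and FN1, the gene of fibronectin, 1.16%, while COL1A1 had 8.0%, COL6A3 83.0% and DCN, the gene of decorin, 94.9% of only 39 calls (83.1 to 98.6). These levels do not check the label, since genes of both lists were below 10%, and expression was not analysed here.

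The genes that write, read and erase the mark were below 10% about as often as other genes. Of 17 listed, 16 were measured, 9 (56.25%) below 10% and 1 at or above 70%, against 62.0% and 15.2% of protein-coding genes. In the single window that holds the start the share below 10% was 91.7% (64.6 to 98.5). There it was 59.4% for all genes, and the share for protein-coding genes alone was not computed. The methyltransferases DNMT1 and DNMT3B had 1.45% and 0.852%, and DNMT3A had 13.2% at the table's start and from 0.642% to 13.2% over its 6 measured RefSeq promoters. TET1 and TET3, which oxidise methylcytosine, had 1.23% and 1.00% at the table's start. At RefSeq promoters further downstream TET1 had 75.9% of 810 calls and TET3 8.03% of 2178. TET2 had 42.4% of 3510 calls (40.7 to 44.0) at the table's start and 1.48% of 1961 calls at a RefSeq start further downstream. UHRF2 had 1.74%, the glycosylase TDG 1.74%, and ZBTB33, the gene of the reader KAISO, 1.03%. UHRF1, which guides DNMT1, had no calls at the table's start and 3.21% to 4.81% at its RefSeq promoters.

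Among the methyl-CpG-binding proteins, MBD3 had 0.812%, MBD4 1.44%, MBD2 13.2% of 4267 calls and MBD1, a repressor at methylated promoters, 24.8% of 2813 calls (23.3 to 26.4). TRIM28, the corepressor of the KRAB zinc finger proteins, had 29.99% of 4328 calls (28.6 to 31.4). ZFP57, a zinc finger protein that protects imprints, was the exception with 95.4% of 7175 calls (94.9 to 95.9).

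Housekeeping genes showed how far the choice of the start can matter. Of 18 measured genes, 10 (55.6%) were below 10% at the table's start and 13 (72.2%) at the RefSeq start, against 62.0% and 63.1% of protein-coding genes. In the single window that holds the table's start the share was 87.5%. YWHAZ had 0.674%, NONO 0.695% and TBP, the TATA-binding protein, 0.870% at the table's start. TUBB and EEF1A1 had 74.97% and 96.4% there, but 0.665% and 0.650% at RefSeq starts 2917 and 4555 bases downstream. NONO went the other way, with 91.3% of 286 calls at a RefSeq start 28821 bases downstream.

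Regulators of the germ layers were mostly unmethylated. Of the ectoderm regulators 15 of 16 were below 10%, of the mesoderm regulators 12 of 15 and of the endoderm regulators 13 of 14, against 62.0% of protein-coding genes, a share that lies inside the interval of the mesoderm list alone (54.8 to 92.95). The medians were 1.50%, 2.70% and 1.78%. The lowest ectoderm regulators were ZIC1 with 0.851%, GBX2 with 0.860% and POU3F2 with 0.980%, and the highest were EN1 with 2.34%, SIX3 with 3.14% and NEUROD1, a neuronal factor, with 12.1%. TBXT, the gene of Brachyury, had 1.37%, PAX3 1.46% and HAND1 1.52%, while MESP1 had 10.5%, MIXL1 11.1% and MYF5, a muscle determination factor, 80.7% of 166 calls (74.1 to 86.0). PROX1 had 0.592%, EOMES 0.814% and GATA6 1.13%, and FOXA2 had 3.96%, PDX1, a pancreatic factor, 4.78% and HNF4A, a liver factor, 91.8% of 2152 calls (90.6 to 92.9).

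The HOX genes, which pattern the body axis, were all below 30% where measured at the table's start. Of 37 measured genes 28 (75.7%, interval 59.9 to 86.6) were below 10% there, against 62.0% of protein-coding genes, and the median was 5.02%. At the RefSeq start 26 of 38 (68.4%) were below 10%, against 63.1%, and the median was 7.61%. HOXD11 had 1.14% and HOXC5 1.50% of 133 calls, while HOXA7 had 19.9%, HOXA3 20.4% and HOXB1 21.9% of 2333 calls (20.3 to 23.7). The HOXD cluster had the lowest median, 2.39% over 9 genes, all below 10%, and the HOXA cluster the highest, 7.75% over 11 genes. At the RefSeq start HOXC5 had 13.1% and HOXA7 8.19%.

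The 12 stretches of low methylation ranked highest by their number of windows spanned 18000 to 27000 bases, gaps included. Consecutive measured autosomal windows below 10%, with gaps of at most 5000 bases, formed 376 runs of 5 or more windows and 60 of 10 or more. These runs were ranked by their number of windows after the values had been seen. The run with the most windows was chr2:172080001-172107000, with 21 over 27000 bases around DLX1 and DLX2, factors of the forebrain. It had 2.48% of 31735 calls, and none of its windows was above 7.02%. The next were 20 windows around EN1 on chromosome 2 (chr2:118833001-118860000, 2.68%), 18 around GATA3 on chromosome 10 (chr10:8043001-8065000, 1.51%) and 17 each around NKX3-2 on chromosome 4, HMX3 and HMX2 on chromosome 10 and SIM2 on chromosome 21. Runs of 15 windows lay around PAX2, TFAP2A, SIX3 and PAX6, and runs of 14 around the HOXD genes from HOXD13 to HOXD10 and around OTX2. These protein-coding genes encode transcription factors of embryonic development. The same 12 runs also hold BUB3, a gene of the spindle checkpoint, in the run of HMX3 and HMX2, and non-coding genes such as DLX2-DT, GATA3-AS1, PAUPAR and OTX2-AS1. The genes of the other runs were not classed.

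Genes of mature tissues were mostly methylated where they could be measured. Of 26 listed genes 13 were measured, 8 of them (61.5%, interval 35.5 to 82.3) at or above 70% and 2 below 10%, with a median of 86.8%. At or above 70% were 15.2% of protein-coding genes and 38.3% of all genes. INS, the insulin gene, had 93.7% of 2872 calls. SYP, a synaptic vesicle gene, had no methylated call among 107, which allows up to 2.80%. APOB, of the liver and gut, had 9.67%, and ACTA1, the actin of skeletal muscle, 17.7%.

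Germline genes, which somatic cells keep silent, were mostly methylated. Of 22 measured genes 17 were at or above 70% (77.3%, against 15.2% of protein-coding genes) and 1 was below 10%, with a median of 89.4%. ASZ1, which acts in the defence against transposons, had 96.6% of 2361 calls (95.8 to 97.2), TPTE 96.1% and SOHLH2, a germ cell transcription factor, 95.7%. Some members of the same piRNA pathway were low or intermediate. MAEL had 0.613% of 5222 calls at the table's start and 90.3% of 3884 calls at a RefSeq promoter further into the gene. TEX15 had 26.0% of 3236 calls and PIWIL2, a PIWI protein, 46.7% of 1926. DAZL had no calls at the table's start, and DDX4, a germ cell helicase, had 90.04% of 532 calls at its measured RefSeq promoter. At the RefSeq start 15 of 21 genes were at or above 70%.

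Intermediate levels were frequent among imprinted genes. Of 27 measured genes 8 (29.6%) lay from 30% to 70%, against 8.42% of protein-coding genes, while 9 were below 10% and 7 at or above 70%. KCNQ1OT1, the non-coding RNA of the KCNQ1 domain, had 46.8% of 3526 calls (45.2 to 48.5), GNAS, the gene of a G protein subunit, 54.1% of 3915 (52.5 to 55.6) and H19, a non-coding RNA beside IGF2, 57.5% of 4612 (56.1 to 59.0). In the Prader-Willi region of chromosome 15, SNURF, which shares its promoter with SNRPN, had 30.3%, MAGEL2 34.9% of 878 calls and NDN 57.6% of 1069, whereas MKRN3 had 92.8% of 3134 (91.9 to 93.7). NNAT had 36.4% of 4068 calls, and DLK1 67.2% at the table's start and 6.86% of 1486 calls at the RefSeq start 1187 bases downstream.

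Several imprinted genes were at an extreme. ZDBF2 had 0.408%, GRB10 0.657% and INPP5F 0.717%. PEG3 and ZIM2, which share a single measured window, had 95.01% of 2383 calls (94.1 to 95.8). Some of these genes have further RefSeq promoters, and those differed from the outer start. GRB10 had 58.3% of 432 calls at an internal promoter, INPP5F 23.8% of 2363, L3MBTL1 58.5% of 3944 and ZNF331 from 52.4% to 57.0% at 5 of its 6 measured promoters, with 0.845% at the other. PLAGL1, without calls at the table's start, had 37.0% of 5629 calls and 41.4% of 1148 at its RefSeq promoters. MEG3, a maternal non-coding RNA, had 91.9% at the table's start and 58.8% of 4041 calls at the RefSeq start 46698 bases downstream.

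Longer stretches of intermediate methylation were rare. Consecutive autosomal windows from 30% to 70% formed 5 runs of 5 or more windows, chosen after the values had been seen. The run with the most windows, chr7:157683001-157694000, held 10 island windows at 41.1% of 19788 calls. No gene name was kept for this run. Several kinds of non-coding and clone-based names were left out, so a missing name does not place a run between genes. The next lay at DMRT2, a factor of somites and the germ line, with 6 windows at 48.0% of 17290 calls (chr9:1042001-1051000). Others were at CBX6 on chromosome 22 (48.9%) and at chr14:100824001-100829000 (58.6% of 9699 calls), the stretch that holds the RefSeq start of MEG3.

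Of 13 listed genes known to vary between iPSC lines, 12 were measured. Below 10% were 7 (58.3%), close to the 62.0% of protein-coding genes, while 3 lay from 30% to 70% and none above. TMEM132D had 0.778%, PTPRT 0.783% and IRX1 1.02%, while C9orf64 had 41.4% of 1588 calls and CAT, the catalase gene, 52.5% of 2879 (50.7 to 54.3).

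Multigene families differed widely among themselves. Reads of near-identical copies can be shared or lost in these families, so single members are uncertain. Olfactory receptors, which are CpG-poor, were measured in 57 of 169 cases, 54 of them (94.7%) at or above 70% and none below 10%, with a median of 90.9%. At or above 70% were 15.2% of protein-coding genes and 38.3% of all genes. OR2T4, OR52N4 and OR7G2 were lowest at the table's start with 55.4%, 56.5% and 62.5%. Highest there were OR6Y1, OR4D5 and OR5F1 with 96.7%, 96.8% and 100% of 60 calls (94.0 to 100). At the RefSeq start 52 of 56 receptors (92.9%) were at or above 70% and 2 lay from 10% to 30%, the lowest at 12.2%. The keratin genes had a median of 89.3% over 30 measured genes, 24 of them (80%) at or above 70%, against the same shares. KRT19 had 1.03%, KRT7 4.66% and the pseudogene KRT87P 7.73%, and KRT75, the pseudogene KRT224P and KRT32 had 95.2%, 96.4% and 97.1%. KRT19 and KRT7 belong to simple epithelia.

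The clustered protocadherins, whose promoters are chosen separately in each neuron, covered the whole scale. Of 36 measured genes 22 (61.1%) were at or above 70%, 6 (16.7%) from 30% to 70% and 6 (16.7%) below 10%, against 15.2%, 8.42% and 62.0% of protein-coding genes. The gamma cluster had a median of 86.5% over 19 genes, the alpha cluster 59.2% over 10 and the beta cluster 42.2% over 7. PCDHGB7 had no methylated call among 94, which allows up to 3.19%, PCDHA4 had 2.21% of 3301 calls and PCDHAC1 2.53%. PCDHGA9 had 95.1%, PCDHGA8 96.9% and PCDHGA12 97.2% of 7404 calls (96.8 to 97.5).

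The zinc finger genes of chromosome 19, many of them repressors of repeated DNA, were spread from fully unmethylated to methylated starts. Of 222 measured genes 114 (51.4%) were below 10%, 35 (15.8%) from 30% to 70% and 23 (10.4%) at or above 70%, with a median of 8.91%. Among protein-coding genes the shares were 62.0%, 8.42% and 15.2%. The values for these zinc finger genes depended on the windows used. In the single window that holds the start 76.0% were below 10% with a median of 1.59%, and 59.4% of all genes were below 10% there. The mean of the windows around the start gave 45.9% and a median of 15.8%. ZNF264 had no methylated call among 40, which allows up to 7.5%, ZNF180 had 0.100% of 1000 calls, and ZNF442 0.274% at the table's start and 91.6% of 405 calls at a RefSeq start 7874 bases upstream. ZNF541, ZNF556 and ZNF547 were highest with 94.6%, 95.6% and 96.0%, and ZNF547 had 92.9% at the RefSeq start.

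Of the 9 genes that the study followed because of its chemicals, 7 were measured at the table's start. Below 10% were 5 (71.4%, interval 35.9 to 91.8), against 62.0% of protein-coding genes. RB1, the retinoblastoma tumour suppressor, had 0.515% of 5438 calls (0.356 to 0.743), JAG1 0.554%, and the cyclin genes CCND2 and CCNA2 0.629% of 2385 calls and 0.822% of 1338. JUND, an AP-1 subunit, had 4.98% of 4502 calls and CREBBP, a histone acetyltransferase, 12.9% of 9466 (12.2 to 13.6). SMAD4, a mediator of TGF-β signalling, had 100% of only 55 calls at the table's start and 0.916% of 6771 calls at the RefSeq start 1819 bases downstream. LIFR, the receptor of leukaemia inhibitory factor, had no calls at the table's start, 0.338% of 2366 calls at the RefSeq promoters in its island and 90.6% of 1271 calls at a CpG-poor promoter upstream. NOTCH4 had no calls there.

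Single windows with many calls have the narrowest counting intervals. Of 13185 autosomal island windows at or above 90%, the deepest lay in an exon of ZNF835 (chr19:56664001-56665000), with 96.7% of 8263 calls (96.3 to 97.0). It was followed by a window at PEAK3 on chromosome 19 (chr19:2276001-2277000) with 91.9% of 8222 calls, and by windows labelled with genes that have no symbol in the table, ENSG00000270533 on chromosome 21 with 96.1%, ENSG00000274177 on chromosome 19 with 94.5% and ENSG00000259540 on chromosome 15 with 93.3%.

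Of 2872 autosomal island windows from 30% to 70%, the deepest was in the promoter of ENSG00000269210 (chr2:38960001-38961000), with 38.3% of 8359 calls (37.2 to 39.3). The promoter of CHAD, a cartilage protein, had 63.8% of 8267 calls (62.8 to 64.8), an intron-exon boundary of CELSR3, a neuronal cadherin, 37.2% of 7907, the stretch upstream of CHKB, a choline kinase, 33.4% of 7809 and an exon of CCDC177 53.9% of 7701 (52.8 to 55.0). At this depth the counting interval of a level near 50% reached about 1 percentage point on either side. The true uncertainty is larger where calls share a read or its PCR copies, and it has no replicate.

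Of 2069 autosomal windows below 10% that lay outside islands, shores and shelves, the 3 deepest were labelled as promoters. The promoter window of ANKRD24 (chr19:4182001-4183000) had 5.15% of 7462 calls, that of TMF1 (chr3:69052001-69053000) 0.840% of 6663 and that of TMEM106C (chr12:47963001-47964000) 1.20% of 6489. An intron-exon boundary of SLC27A1, a fatty acid transporter, had 0.658% of 6228 calls, and a window that the table places between genes, with TSNAXIP1 as the gene assigned, 1.07% of 5971.

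The 9 mitochondrial windows give a measure of unconverted cytosines, since mitochondrial DNA is largely free of CpG methylation. They had 32 methylated calls of 6110, or 0.524% (0.371 to 0.738), between 0 and 1.897% per window. The levels of SOX2, SALL4, RB1 and JAG1, 0.427%, 0.536%, 0.515% and 0.554%, lay inside this interval. Differences between these genes, or from the mitochondrial level, were not tested.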

How the data were processed

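Genomic DNA of 1 vehicle control sample was analysed. Per the labels and the methods, the authors trimmed the reads with Trim Galore 0.5.0 after FastQC 0.11.7, aligned them with Bismark 0.20.0, converted files with SAMtools 1.9 and tallied CpG calls with methylKit 1.10.0 in windows of 1000 bases. They scaled the coverage between libraries, dropped windows whose coverage was low or extreme and kept those covered in all 5 libraries, so a window lost in any library is missing here. The submitters' processing notes name hg38. The labels and the methods name different DNA extraction kits. The smallest number of calls in the table was 10.

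The deposited calls of the control are whole-number counts, and their β-value is a fraction that the authors computed as methylated over all calls. The methods place the scaling of coverage before the libraries were merged, so these counts may be scaled rather than observed. Every interval, standard error and limit here takes them as observed and is approximate for that reason. The single-sample table the authors deposited held the same β-value in all 288391 windows, and 16 columns of the other samples were not used. The 573 windows off the autosomes and X were left out of all summaries, and the mitochondrial ones are given separately.

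Windows with at least 30 calls were classed by thresholds of 10%, 30%, 70% and 90%. Gene starts, symbols and strands came from the deposited table. Of its 50599 genes, 32754 (64.7%) matched a RefSeq record on GRCh38.p14 by Ensembl identifier or by symbol and chromosome, which gave the gene type and a second start. Sequences came from RefSeq promoters on the same assembly. The genes named are all measured members of the pluripotency, methylation and study lists, the 3 lowest and 3 highest of each other list, and imprinted genes from 30% to 70%. Genes named outside this rule, mainly for further RefSeq promoters, and the runs of windows were chosen after their values were seen. Single windows are the 5 with the most calls in each of 3 classes. Some members that this rule names are counted in their lists and not reported here by name. The members and lists were chosen with earlier results of these data known. With 1 library there was no test. A window's interval had a median width of 4.76 percentage points, taken over 1 window in 50. The functions were checked on simulated data. Analyses used Python 3.11.15, numpy 2.4.6, pandas 2.3.3, scipy 1.17.1 and matplotlib 3.10.9. The alternatives were other call minimums, autosomes alone, pooled calls, other thresholds and other definitions of a gene start.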

Additional observations from a re-analysis of the deposited data

How the results depend on the processing

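Averages over windows depend on how windows are weighted. With all calls pooled, the mean β-value changed from 79.2% to 63.2%, that of island windows from 41.3% to 28.6%, that of windows outside islands, shores and shelves from 88.1% to 87.2% and that of promoter windows from 44.5% to 24.0%. With at least 10 calls these means were 79.4%, 41.5%, 88.1% and 44.8%, and with at least 100 calls 78.5%, 40.8%, 88.0% and 43.1%. On autosomes alone the mean was 79.2% and that outside islands, shores and shelves 88.1%, by which both left their narrow counting intervals. The share of windows below 10% was 9.57% with at least 10 calls, 10.4% with at least 100 and 10.9% with a threshold of 20%. The share at or above 90% was 55.4% with at least 100 calls and 79.7% with a threshold of 80%.

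The share of gene starts below 10%, 43.7%, was 59.4% in the window that holds the start, 42.5% in the windows labelled as promoter of the gene, 40.2% with the mean of the windows and 44.7% with at least 100 calls. The share at or above 70%, 38.3%, was 30.2%, 42.3% and 37.2% for the first, second and last of these. Added after seeing the data, the start of the RefSeq record gave 51.3% and 29.3%, and protein-coding genes alone 62.0% and 15.2%. Of 270 values for the 18 gene lists under these settings, 246 stayed within the 95% interval of the value reported. For short lists this says little, because their intervals are wide and the settings share genes and windows. The interval for the median of the naive list, for example, ran from 1.60% to 93.7%. Of the 24 that left it, 14 came from the window that holds the start. There the share below 10% changed from 56.25% to 91.7% for the methylation machinery, from 55.6% to 87.5% for housekeeping genes, from 51.4% to 76.0% for zinc finger genes of chromosome 19, and to 100% for the fibroblast, ectoderm and study lists. The median of the zinc finger genes was 1.59% there and 15.8% with the mean of the windows. No paired analysis was possible because there is 1 library. Among gene starts, depth limits those with few calls, such as the starts of SMAD4 and DCN. Levels of windows also differed with their number of calls. The mean was 85.7% in windows with 30 to 237 calls and 62.5% in those with at least 991. In islands these means were 58.3% and 32.4%, with 28.9% and 57.5% of the windows below 10%. Outside islands, shores and shelves they were 88.3% and 86.7%. The reason was not tested.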
